A study of Mus musculus with 18 samples.

Results

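The 8 genes described here belong to the interleukin-1 (IL-1) family of cytokines and receptors: the agonist cytokines Il1a, Il1b, Il18 and Il33, the antagonist Il1rn, the soluble inhibitor Il18bp, the decoy receptor Il1r2 and the co-receptor Il1rap. They were chosen by name, as the rows of the count table whose Ensembl identifier maps to these symbols, and are 8 of 50600 genes in the table. Their transcripts were counted by RNA-seq in bone marrow-derived macrophages (BMDMs) of WT or IRF5-/- (IRF5 KO) mice, grown for 8 days with recombinant GM-CSF. In each genotype there were 3 libraries of unstimulated cells, 3 of cells given the vehicle DMSO for 1 h and then LPS at 100 ng/ml for 2 h (LPS DMSO), and 3 of cells given 3.5 μM defactinib for 1 h and then the same LPS (LPS defactinib). LPS is the bacterial ligand of the receptor TLR4, IRF5 is a transcription factor activated downstream of it, and defactinib is an inhibitor of the kinases PYK2 and FAK. The comparisons ask how LPS, the loss of IRF5 and the inhibitor each changed these genes, and whether the inhibitor acted alike in cells with and without IRF5.

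IL-1α and IL-1β bind the receptor IL-1R1, which then recruits IL-1RAcP, the product of Il1rap, and signals through MyD88 and the IRAK kinases to NF-κB. The family is checked at several steps: IL-1RA, the product of Il1rn, occupies IL-1R1 without signalling, IL-1R2 binds IL-1 but lacks the signalling domain, and IL-18BP captures IL-18. IL-1β and IL-18 are made as precursors that are cleaved by caspase-1 in inflammasomes, whereas IL-1α and IL-33 are active as alarmins released from damaged cells, IL-33 through the receptor ST2. Only the transcripts were measured here, not the cleaved or released proteins.

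The libraries held 39282181 to 61949143 counted read pairs (median 45317217). The design names 3 biological replicates per condition. Chi-square per gene, near 1 if 2 libraries differ by counting noise alone, set some replicates close together. It was 2.33 for replicates 1 and 2 of IRF5 KO LPS DMSO and 3.82 for the same numbers in WT unstimulated. Replicates 1 and 3 were at 4.79 in IRF5 KO LPS defactinib and 7.09 in IRF5 KO unstimulated. All other pairs were at 18.2 or more. Whether the close pairs were separate cultures was not tested, and each SE and p-value treats them as independent. Replicate 3 of IRF5 KO LPS DMSO stood apart: over all tested genes it differed from replicates 1 and 2 by a median of 0.56 and 0.55 in log2 CPM, against 0.09 between these 2 libraries, so values that moved by over 1.5 times, or whose call changed, are also given without it. The WT LPS defactinib libraries were the next most spread, with median differences of 0.29 to 0.40, and libraries of the other groups differed by 0.08 to 0.19. Irf5 was still counted in the IRF5 KO libraries, at 335, 397 and 364 CPM (counts scaled to a common library size by TMM) in unstimulated cells, where the WT libraries held 587, 606 and 650.3. After LPS with DMSO it was at 434, 475 and 443 CPM in WT and 435, 431 and 345 in IRF5 KO. With defactinib before LPS it was at 213, 234 and 379 CPM in WT and 364, 392 and 353 in IRF5 KO. Counts over the whole gene therefore did not tell the genotypes apart after LPS, and genotypes are given as labelled. The log2 fold change of WT against IRF5 KO was 0.16 with DMSO and -0.42 with defactinib, neither called. In WT, Irf5 itself was called lower after LPS with defactinib than unstimulated (-1.16, edgeR adjusted p = 5.92e-05), a call lost without replicate 1 of WT LPS defactinib (-0.97) and under a test against the fold threshold (glmTreat, adjusted p = 0.318). The labels give DMSO for the unstimulated libraries and the count table marks them as untreated. Macrophage markers such as Lyz2 and Csf1r were high in every group, and markers of T, NK, B and stromal cells summed to at most 6.19 CPM in any library. The summed level of 8 neutrophil markers was 57.9 to 82.4 CPM in unstimulated libraries and moved with LPS, to 121 to 236 CPM in WT and 148 to 180 CPM in IRF5 KO with DMSO and 117 to 170 CPM with defactinib. Most of it was S100a8 and S100a9, and Ly6g, Retnlg and Mpo each averaged at most 1.03 CPM in any group. The other neutrophil markers, Ngp, Ltf and Camp, also had higher means after LPS with DMSO in both genotypes. In WT, Ngp went from 9.77 to 28.1 CPM, Ltf from 6.91 to 15.1 and Camp from 1.17 to 2.66. In IRF5 KO, Ngp went from 13.4 to 26.9 CPM. Markers of dendritic cells, 6 in all, summed to 3675 to 6434 CPM, nearly all of it Itgax and H2-Ab1, with Flt3 at a mean of at most 2.16 CPM in any group. Among the others, Ccr7 went from a mean of 36.0 CPM unstimulated to 311 with LPS and 23.2 with LPS and defactinib in WT, and from 63.1 to 114 and 156 in IRF5 KO. Zbtb46 went from 60.4 to 91.3 and 25.2 CPM in WT and from 34.9 to 61.9 and 70.7 in IRF5 KO, and Dpp4 from 6.65 to 11.3 and 30.3 in WT and from 29.3 to 49.9 and 35.2 in IRF5 KO. The part of these cells in the results was not tested. In bulk RNA, fewer cells that express a gene and less RNA per cell cannot be told apart.

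Il1a (ENSMUSG00000027399, chromosome 2, 129299610 to 129309972 of GRCm38, minus strand) and Il1b (ENSMUSG00000027398, chromosome 2, 129364570 to 129371139, minus strand) lie side by side, and Il1rn (ENSMUSG00000026981, chromosome 2, 24336853 to 24351494, plus strand) lies on the same chromosome. Il33 (ENSMUSG00000024810) is on chromosome 19, 29925114 to 29960718, plus strand. RefSeq starts for GRCm38.p6 were found for all 8 genes, and the 250 bases before the start are shown for the genes on which the results turn: Il1a and Il1b, the most strongly LPS-induced members, and both starts of Il33, the member that differed most between genotypes. They are written 5′ to 3′ on the strand of the gene, with capitals for the TATA box letters TATAAA and the AP-1 letters TGANTCA.
Il1a promoter, chr2:129309973-129310222, minus strand: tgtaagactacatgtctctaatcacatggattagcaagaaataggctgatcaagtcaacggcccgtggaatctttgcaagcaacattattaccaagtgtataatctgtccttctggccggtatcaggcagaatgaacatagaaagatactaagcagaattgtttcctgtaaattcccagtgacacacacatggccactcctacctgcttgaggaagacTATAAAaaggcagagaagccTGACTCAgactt
Il1b promoter, chr2:129371140-129371389, minus strand: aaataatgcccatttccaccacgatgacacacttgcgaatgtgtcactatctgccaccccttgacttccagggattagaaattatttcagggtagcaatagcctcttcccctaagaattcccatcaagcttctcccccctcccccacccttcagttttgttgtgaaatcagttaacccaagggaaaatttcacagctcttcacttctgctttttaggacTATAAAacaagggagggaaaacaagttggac
Il33 promoter, first start, chr19:29924863-29925112, plus strand: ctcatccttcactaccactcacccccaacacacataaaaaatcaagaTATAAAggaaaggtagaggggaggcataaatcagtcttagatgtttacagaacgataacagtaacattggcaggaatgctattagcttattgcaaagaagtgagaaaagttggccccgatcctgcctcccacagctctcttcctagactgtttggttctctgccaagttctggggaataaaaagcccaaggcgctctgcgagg
Il33 promoter, second start, chr19:29945540-29945789, plus strand: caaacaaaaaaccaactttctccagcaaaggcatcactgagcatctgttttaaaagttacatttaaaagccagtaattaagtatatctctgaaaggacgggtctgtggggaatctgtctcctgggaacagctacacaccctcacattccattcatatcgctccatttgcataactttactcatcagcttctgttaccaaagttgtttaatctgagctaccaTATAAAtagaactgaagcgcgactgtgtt
TATAAA began 32 bases before the start of Il1a, 31 before that of Il1b, and 203 and 29 before the starts of Il33, and TGANTCA began 12 bases before the start of Il1a. In the windows not shown, TGANTCA began 141 bases before 1 start of Il1rn, and TATAAA lay 175 bases before the start of Il18, on the opposite strand. On either strand, TATAAA was in 12.4% and TGANTCA in 6.75% of all 32851 windows of this length. The NF-κB consensus (in 7.25% of windows), the core of the interferon-stimulated response element (in 2.98%) and the PU.1 letters GAGGAAGT (in 2.44%) were not found in the windows of any of the 8 genes. Overlaps between the motifs were not found in the windows shown.

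The members spanned a wide range of levels. Per kilobase of exon, Il1rn was the most abundant member in unstimulated cells, at 117 ± 10.8 CPM per kb in WT and 112 ± 16.2 in IRF5 KO (mean ± SD, n = 3). After LPS with DMSO, the agonists led: Il1b was at 1690 ± 227 and Il1a at 1388 ± 257 CPM per kb in WT, and Il1a at 620.1 ± 236 and Il1b at 517 ± 381 in IRF5 KO. Il1rap, Il18bp and Il18 stayed below 6.5 CPM per kb in the mean of every group. Levels per kilobase depend on the exon length, which was longest for Il1rap, at 11360 bases with 7 annotated transcripts. Of the 8 members, 5 had their highest group mean in WT LPS DMSO, while Il18, Il33 and Il18bp had theirs in WT LPS defactinib, where the libraries overlapped with WT LPS DMSO.

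**Figure D1:**
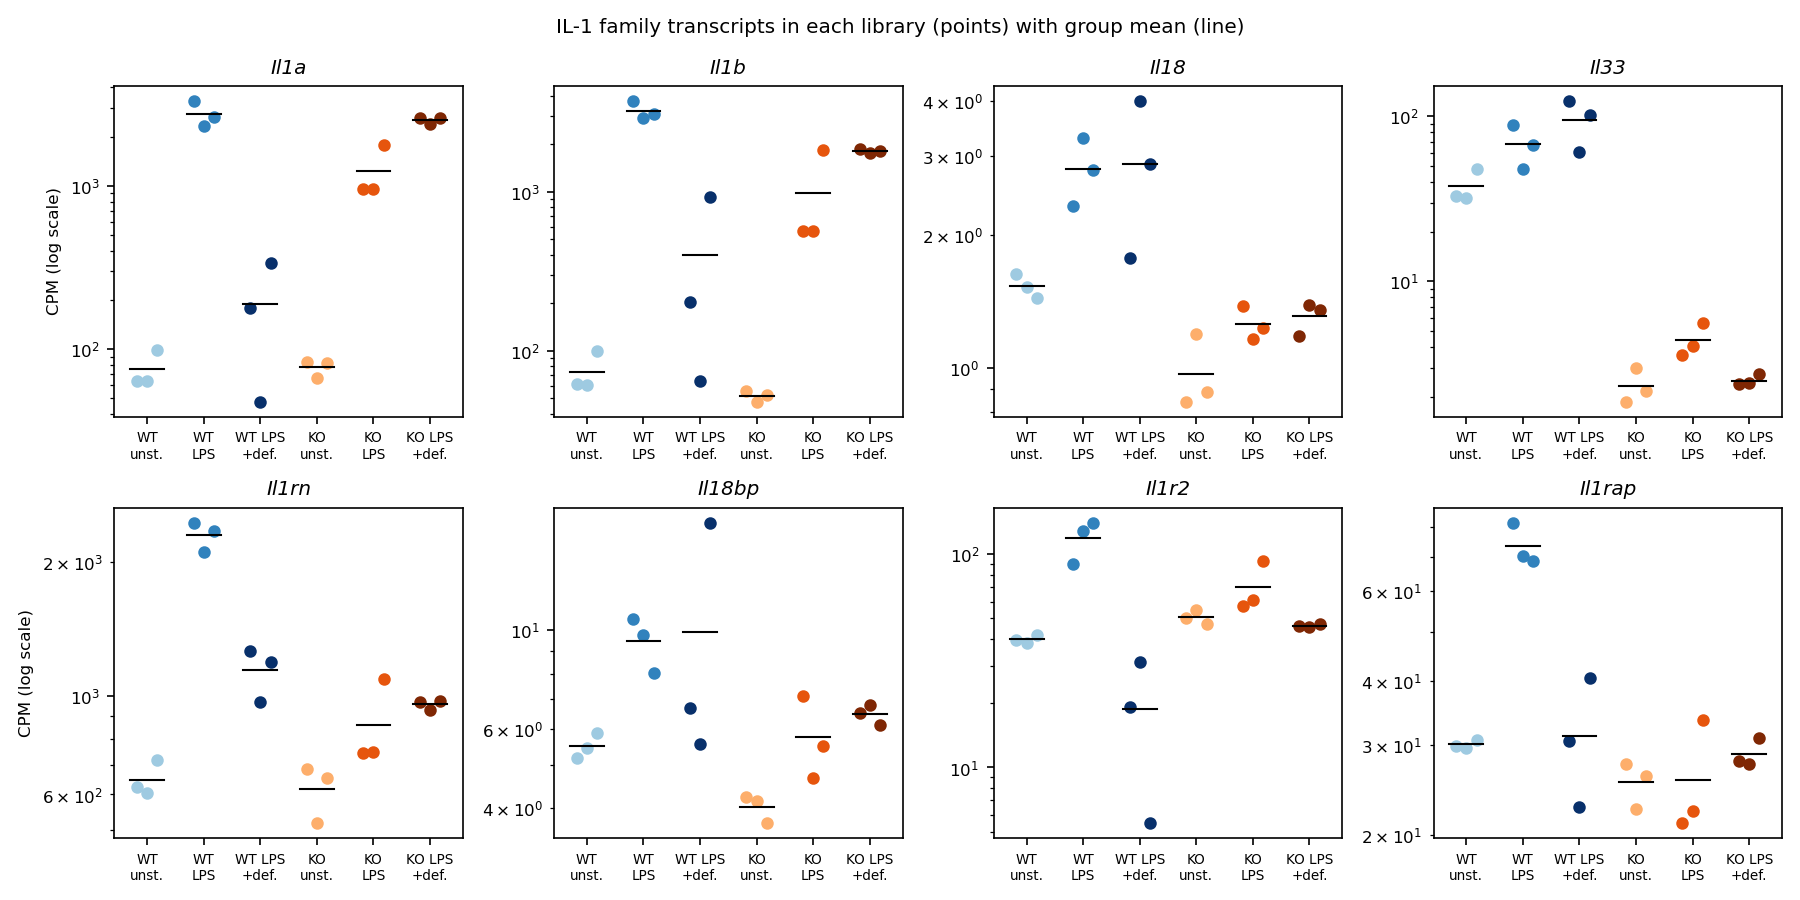
CPM of the 8 genes on log axes, 1 panel per gene; each point is a library and each line the mean of a group of 3 (unst., unstimulated; LPS, LPS DMSO; LPS +def., LPS defactinib). Il1a and Il1b are high in WT LPS DMSO and in both IRF5 KO LPS groups, and Il33 is between 31.8 and 123 CPM in every WT library and between 1.87 and 5.60 in every IRF5 KO library.

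A gene was called when its false discovery rate in edgeR's quasi-likelihood test was below 0.05 and its log2 fold change was beyond 1. LPS raised 5 of the 8 members in WT cells (Il1a, Il1b, Il1rn, Il1r2 and Il1rap), where 11.6% of the 15663 tested genes were called higher and 9.71% lower, and 2 of 8 in IRF5 KO cells (Il1a and Il1b), where 7.07% were called higher and 6.28% lower. Defactinib lowered the same 5 genes after LPS in WT cells, against 18.6% of all genes called lower and 10.4% higher, and changed none of the 8 in IRF5 KO cells, against 0.16% called higher and 0.76% lower. At an unadjusted p below 0.05, 1 member was higher (Il1a) and 1 lower (Il33) with defactinib in IRF5 KO cells, and DESeq2 and limma-voom called 0 there, DESeq2 without a p-value for Il1b. A stricter test, of whether the fold change itself exceeds the threshold (glmTreat in edgeR), kept the calls of Il1a, Il1b and Il1rn with LPS in WT and of Il1a, Il1b and Il1r2 with defactinib in WT. Between genotypes it kept those of Il1rn, Il33 and Il1rap after LPS with DMSO and of Il33 and Il1a after LPS with defactinib. The other calls of these 4 comparisons were lost. The median log2 fold change with defactinib was -1.12 for the members and 0.09 for all genes in WT cells, and 0.16 and -0.04 in IRF5 KO cells. Between genotypes, 1 member was called higher in WT when unstimulated (Il33; 3.8% of all genes, with 3.51% lower), 6 after LPS with DMSO (all but Il1r2 and Il18bp; 14%, with 11.8% lower), and 2 (Il18 and Il33; 8.45%) with 3 lower (Il1a, Il1b and Il1r2; 8.87%) after LPS with defactinib. The comparisons of a genotype share its LPS DMSO libraries, so a rise with LPS and a fall with defactinib are not independent of each other.

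**Figure D2:**
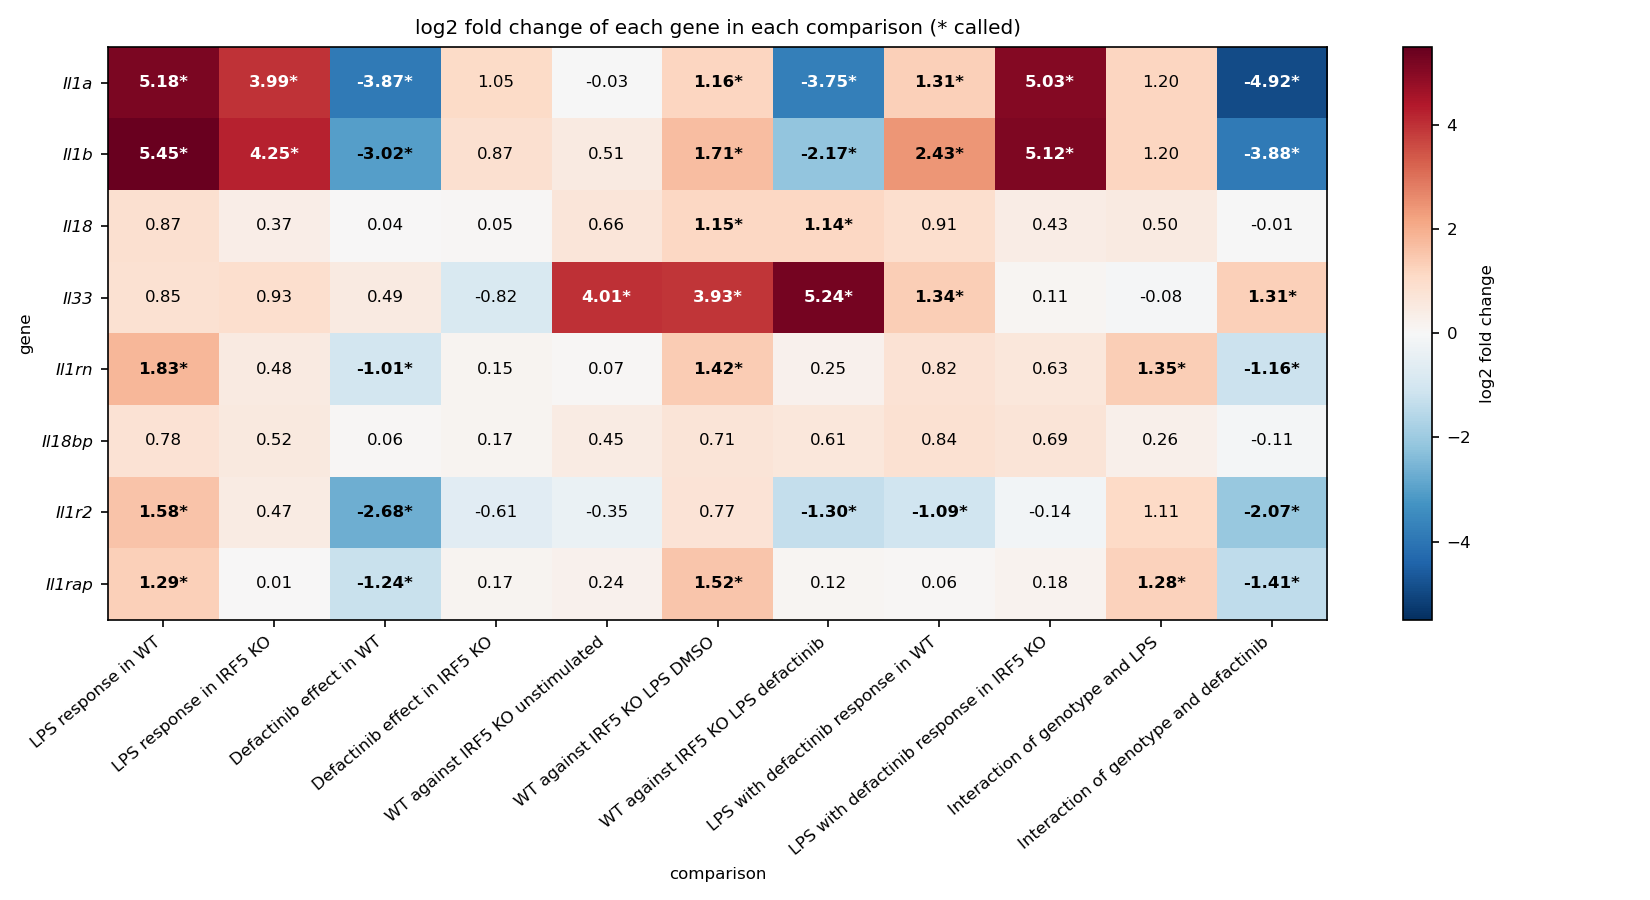
log2 fold changes of the 8 genes (rows) in the 11 comparisons (columns) from edgeR, red for higher and blue for lower in the first-named state; an asterisk marks a called change. The highest values plotted are those of Il1b with LPS in WT (5.45), Il33 in WT against IRF5 KO after LPS with defactinib (5.24) and Il1a with LPS in WT (5.18), and the lowest is that of Il1a in the interaction of genotype and defactinib (-4.92).

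Il1a encodes IL-1α. It was counted at 63.8, 63.5 and 99.3 CPM in unstimulated WT cells and at 3297, 2306 and 2618 CPM after LPS with DMSO. The lowest LPS library lay far above the highest unstimulated one, and the log2 fold change was 5.18 ± 0.54 (SE, n = 3 per group; edgeR adjusted p = 2.56e-06). Without IRF5 it went from 83.5, 66.6 and 81.6 to 957, 953 and 1763 CPM, a log2 fold change of 3.99 ± 0.51 (edgeR adjusted p = 0.000173), or 3.63 without replicate 3 of IRF5 KO LPS DMSO. The LPS responses of the genotypes differed by 1.20 in log2 fold change (95% interval -0.18 to 2.57, edgeR adjusted p = 0.207), which was not called. It was called with only the groups compared in the fit (1.16, edgeR adjusted p = 0.0492) and without replicate 2 of WT LPS defactinib (1.17, edgeR adjusted p = 0.0481). Unstimulated, the libraries of the genotypes overlapped, with a log2 fold change of -0.03 ± 0.45 (edgeR adjusted p = 0.989).

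With defactinib before LPS, Il1a was at 178, 47.5 and 338 CPM in WT cells, so that replicate 2 was below every unstimulated WT library and no library approached the LPS DMSO level. The log2 fold change against LPS DMSO was -3.87 ± 0.51 (edgeR adjusted p = 1.93e-05), or -4.60 without replicate 3 of WT LPS defactinib. The IRF5 KO libraries with defactinib were at 2608, 2378 and 2601 CPM, all above the 3 LPS DMSO libraries of that genotype, with a log2 fold change of 1.05 ± 0.46 that was not called (95% interval 0.07 to 2.02, edgeR adjusted p = 0.184, and 0.156 without replicate 3 of IRF5 KO LPS DMSO). Without replicate 2 of WT LPS defactinib in the fit, which gives the shared estimate of spread, it was called at 1.03 (edgeR adjusted p = 0.0479). The change with defactinib differed between genotypes by -4.92 ± 0.68 in log2 (edgeR adjusted p = 5.95e-05), or -5.64 without replicate 3 of WT LPS defactinib. After LPS with defactinib the genotypes therefore stood in the opposite order to LPS with DMSO: Il1a was lower in WT by a log2 fold change of -3.75 (edgeR adjusted p = 3.95e-05), or -4.49 without that library, and had been higher in WT by 1.16 (edgeR adjusted p = 0.0453) with DMSO. The latter was called in 3 of the 18 fits that left out 1 library, with log2 fold changes of 0.99 to 1.52. It was not called when scaled by library size alone (0.88, edgeR adjusted p = 0.113) or with no filter on low counts (edgeR adjusted p = 0.124).

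Il1b encodes IL-1β and moved much as Il1a did, with which it correlated at Pearson r = 0.97 over the 18 libraries. It went from 61.4, 60.7 and 99.1 CPM in unstimulated WT cells to 3713, 2890.4 and 3064 CPM after LPS with DMSO, a log2 fold change of 5.45 ± 0.79 (edgeR adjusted p = 5.47e-05). In IRF5 KO cells it went from 55.4, 47.7 and 52.5 to 563, 568 and 1825 CPM. Replicate 3 of IRF5 KO LPS DMSO was 3.24-fold above the lowest library of its group, and the log2 fold change with LPS was 4.25 ± 0.74 with it and 3.44 without it (edgeR adjusted p = 0.00165 and 0.00189). The LPS responses of the genotypes differed by 1.20 (95% interval -0.77 to 3.18, edgeR adjusted p = 0.378), or 2.00 without replicate 3 of IRF5 KO LPS DMSO, and was not called in either fit.

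With defactinib, Il1b was at 201, 64.1 and 930.0 CPM in WT cells, a 14.5-fold range within the group. All 3 libraries were below those of LPS DMSO, and the log2 fold change was -3.02 ± 0.70 (edgeR adjusted p = 0.00209), or -4.60 without replicate 3 of WT LPS defactinib, the highest of them. The IRF5 KO libraries were at 1856, 1745 and 1794 CPM, above replicates 1 and 2 of LPS DMSO and level with replicate 3. The log2 fold change was 0.87 ± 0.66 (95% interval -0.53 to 2.27, edgeR adjusted p = 0.450), or 1.67 without replicate 3 (edgeR adjusted p = 0.225). The difference between genotypes in the change with defactinib was -3.88 ± 0.95 (edgeR adjusted p = 0.00518), or -4.69 without replicate 3 of IRF5 KO LPS DMSO and -5.45 without replicate 3 of WT LPS defactinib. Il1b was higher in WT than in IRF5 KO after LPS with DMSO by a log2 fold change of 1.71 (edgeR adjusted p = 0.0437, called in 4 of the 18 fits that left out 1 library), or 2.51 without replicate 3 of IRF5 KO LPS DMSO. This was not called with library size alone (1.40, edgeR adjusted p = 0.0863) or no filter (edgeR adjusted p = 0.123). It was lower in WT after LPS with defactinib by -2.17 (edgeR adjusted p = 0.0210), or -3.76 without replicate 3 of WT LPS defactinib. This call was lost without replicate 1 of WT LPS defactinib (-1.83, edgeR adjusted p = 0.0780), with no filter (edgeR adjusted p = 0.0663) and with only the groups compared in the fit (edgeR adjusted p = 0.114).

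Compared with unstimulated cells, LPS with defactinib still left both genes called higher in WT, Il1a by a log2 fold change of 1.31 (edgeR adjusted p = 0.0268) and Il1b by 2.43 (edgeR adjusted p = 0.00851), among 3 members called higher against 9.1% of all genes and 1 lower against 15.8%. The libraries of the 2 groups overlapped for both genes, and without replicate 3 of WT LPS defactinib the log2 fold changes were 0.57 and 0.84 and neither was called. Nor was either called by limma-voom (0.94 and 1.67) or with only the groups compared in the fit (edgeR adjusted p = 0.119 and 0.0604). Il1a was also not called without replicate 1 or 2 of WT unstimulated (1.20 in either case), with library size alone (1.12) or with no filter (1.27). The same comparison in IRF5 KO cells gave 5.03 for Il1a and 5.12 for Il1b (edgeR adjusted p = 1.46e-05 and 0.000168), the 2 members called higher there against 7.85% of all genes, with none lower against 16.2%.

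Il18 encodes the precursor of IL-18, a cytokine that drives interferon-γ production by T and NK cells. It was scarce in every library, at 0.841 to 1.39 CPM in the 9 IRF5 KO libraries and 1.44 to 3.99 CPM in the 9 WT libraries. With LPS it was at 2.32, 3.30 and 2.80 CPM in WT, against 1.63, 1.52 and 1.44 unstimulated, a log2 fold change of 0.87 ± 0.25 that fell short of the fold threshold (edgeR adjusted p = 0.0112). Defactinib did not move it detectably in either genotype, with log2 fold changes of 0.04 (95% interval -0.49 to 0.57) in WT and 0.05 (-0.50 to 0.61) in IRF5 KO. It was higher in WT than in IRF5 KO after LPS with DMSO by 1.15 ± 0.26 (edgeR adjusted p = 0.00176), or 0.90 and not called with library size alone, and with defactinib by 1.14 ± 0.26 (edgeR adjusted p = 0.00266), the latter not called without replicate 2 of WT LPS defactinib (0.84). Unstimulated, the difference was 0.66 ± 0.26 and was not called (edgeR adjusted p = 0.109), although the libraries of the genotypes did not overlap.

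Il33 encodes the alarmin IL-33, known mainly from epithelial, endothelial and stromal cells. It was the member that differed most between genotypes, in all 3 states. Unstimulated WT libraries held 33.0, 31.8 and 48.1 CPM and IRF5 KO libraries 1.87, 2.98 and 2.16, and the log2 fold change was 4.01 ± 0.31 (edgeR adjusted p = 3.93e-07). After LPS with DMSO it was at 88.7, 47.8 and 66.7 CPM in WT and 3.61, 4.06 and 5.60 in IRF5 KO, with a difference in log2 of 3.93 ± 0.30 (edgeR adjusted p = 1.92e-07), or 4.14 without replicate 3 of IRF5 KO LPS DMSO. After LPS with defactinib it was at 123, 60.9 and 101 CPM in WT and 2.39, 2.42 and 2.74 in IRF5 KO, with a difference in log2 of 5.24 ± 0.33 (edgeR adjusted p = 1.07e-08). Each of these 3 calls was made in all 18 fits that left out 1 library.

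The responses of Il33 to the treatments were small beside the difference between genotypes. With LPS its log2 fold change was 0.85 ± 0.27 in WT (edgeR adjusted p = 0.0184) and 0.93 ± 0.29 in IRF5 KO (edgeR adjusted p = 0.0235), neither called. Leaving out 1 library brought the WT change past the threshold in 2 fits (1.06 without WT unstimulated replicate 3 and 1.04 without WT LPS DMSO replicate 2) and the IRF5 KO change in 3 (1.00 to 1.14, without IRF5 KO unstimulated replicate 2 or LPS DMSO replicate 1 or 2). Defactinib left it at 0.49 in WT and -0.82 in IRF5 KO, neither called (edgeR adjusted p = 0.128 and 0.112). The difference between these 2 changes was called at 1.31 ± 0.40 (edgeR adjusted p = 0.0170), the 1 member called higher in this interaction against 10.5% of all genes. By limma-voom it was 1.29 with an adjusted p of 0.0663 and was not called. Against unstimulated cells, LPS with defactinib raised Il33 in WT by 1.34 ± 0.27 (edgeR adjusted p = 0.000961). Among the markers of other cells that could hold Il33, the 6 stromal markers summed to 0.05 to 6.19 CPM, with 5 or 6 of them below 1 CPM in every group. The summed level of 10 mast cell and basophil markers moved with the genotype, in the opposite direction, from 8.06 to 15.7 CPM in WT to 43.2 to 73.2 CPM in IRF5 KO libraries. This sum was made up almost wholly of Gata2 and Kit, with Fcer1a, Ms4a2, Cma1 and Mcpt4 at or near 0, and its part in the result was not tested.

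Il1rn encodes the antagonist IL-1RA. In WT cells it went from 623, 604 and 716 CPM unstimulated to 2449.5, 2099.9 and 2341 CPM after LPS with DMSO, a log2 fold change of 1.83 ± 0.15 (edgeR adjusted p = 2.23e-07). In IRF5 KO cells it went from 686, 517 and 654 to 744, 748 and 1089 CPM, a log2 fold change of 0.48 ± 0.15 that was not called (edgeR adjusted p = 0.0232), or 0.27 without replicate 3. The LPS response was larger in WT by 1.35 ± 0.21 (edgeR adjusted p = 0.000863), or 1.56 without replicate 3 of IRF5 KO LPS DMSO. The interaction of genotype and LPS called 2 members higher, Il1rn and Il1rap, against 6.33% of all genes, and none lower, against 3.49%. Unstimulated, Il1rn did not differ detectably between genotypes (0.07, 95% interval -0.25 to 0.38).

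Defactinib brought Il1rn to 1258, 969.7 and 1193 CPM in WT cells, below all LPS DMSO libraries and above all unstimulated ones. The log2 fold change against LPS DMSO was -1.01 ± 0.15 (edgeR adjusted p = 4.80e-05), at the fold threshold itself, and it was called in 10 of the 18 fits that left out 1 library, over a range of -1.05 to -0.90. It was not called with library size alone (-0.81), a filter of 5 CPM in 3 libraries (-0.97) or only the groups compared in the fit (-0.98). The IRF5 KO libraries were at 968, 928 and 974 CPM, a log2 fold change of 0.15 (95% interval -0.16 to 0.47). The difference between these changes was called in all 18 fits, at -1.16 ± 0.21 (edgeR adjusted p = 0.000531), but not with library size alone (-0.82). After LPS with DMSO Il1rn was higher in WT than in IRF5 KO by 1.42 ± 0.15 (edgeR adjusted p = 3.42e-06), and after LPS with defactinib by 0.25, not called (95% interval -0.06 to 0.57).

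The balance of antagonist to agonists was read as the ratio of Il1rn to the sum of Il1a and Il1b, in CPM per kb, which no scaling between libraries can change. The exon length was 5535 bases for Il1rn, with 6 annotated transcripts, and 1974 and 1907 bases for Il1a and Il1b. The level of the ratio depends on these lengths. It was 1.74, 1.71 and 1.26 in unstimulated WT cells and 0.122, 0.141 and 0.144 after LPS with DMSO. The IRF5 KO libraries were at 1.74, 1.59 and 1.72 unstimulated and 0.172, 0.173 and 0.106 with LPS, so that unstimulated and LPS DMSO libraries did not overlap in either genotype and the genotypes overlapped in the unstimulated state. With defactinib before LPS it was 1.16, 3.04 and 0.327 in WT, which spans the unstimulated values, and 0.0763, 0.0791 and 0.0780 in IRF5 KO, lower than in any other library. With 3 libraries per group an exact permutation test, two-sided, cannot go below 0.1, so these ratios are given as values.

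**Figure D3:**
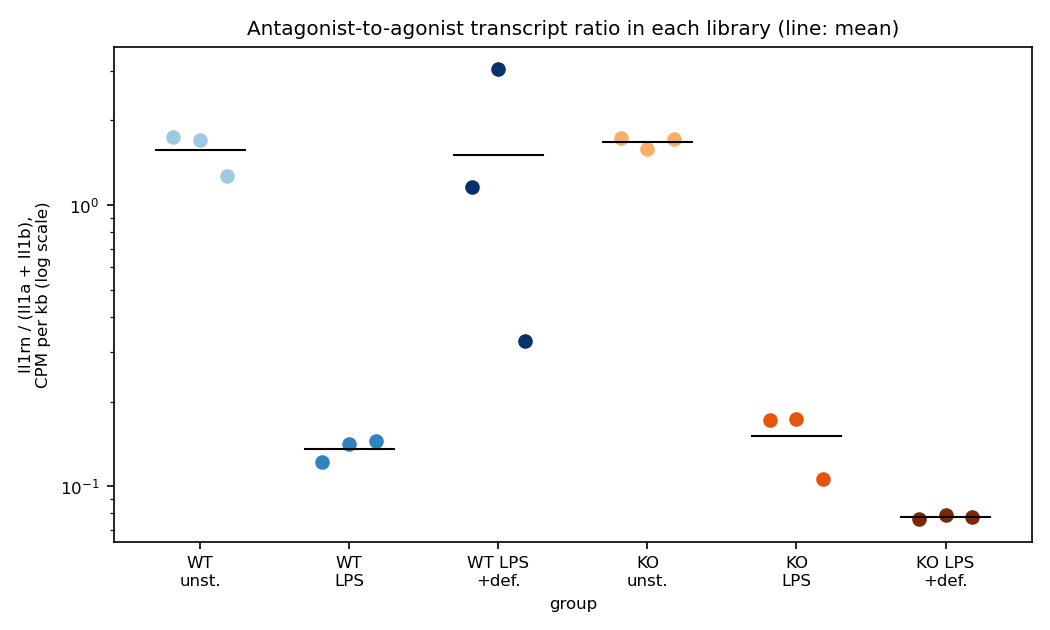
Ratio of Il1rn to Il1a plus Il1b transcripts (CPM per kb, log axis) in each library by group; points are libraries and lines the means of 3. The ratio is above 1.2 in all unstimulated libraries, at 0.0763 to 0.0791 in IRF5 KO LPS defactinib, and spread from 0.327 to 3.04 in WT LPS defactinib.

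Il1r2 encodes the decoy receptor, which binds IL-1 without signalling. In WT cells it went from 39.8, 38.3 and 41.9 CPM unstimulated to 90.1, 128 and 141 after LPS with DMSO, a log2 fold change of 1.58 ± 0.39 (edgeR adjusted p = 0.00442). With defactinib it was at 19.3, 31.4 and 5.47 CPM, all below the unstimulated libraries, a log2 fold change of -2.68 ± 0.41 against LPS DMSO (edgeR adjusted p = 7.64e-05), or -3.28 without replicate 2 of WT LPS defactinib. It was the 1 member called lower than in unstimulated WT cells after LPS with defactinib, by -1.09 ± 0.39 (edgeR adjusted p = 0.0295). This call was lost without replicate 1, 2 or 3 of WT unstimulated or replicate 1 of WT LPS defactinib (-1.06 to -1.13, edgeR adjusted p of 0.0535 to 0.0727) and without replicate 3 of WT LPS defactinib (-0.64), with no filter (edgeR adjusted p = 0.0598) and with only the groups compared in the fit (edgeR adjusted p = 0.148). It was -1.70 without replicate 2 of WT LPS defactinib. IRF5 KO libraries held 50.4, 54.9 and 47.2 CPM unstimulated, 57.1, 60.8 and 93.1 with LPS and DMSO, and 45.9, 45.8 and 46.9 with LPS and defactinib. None of the changes in IRF5 KO cells was called: LPS gave 0.47 (95% interval -0.36 to 1.29) and defactinib -0.61 (-1.43 to 0.22). The LPS response was larger in WT by 1.11 (95% interval -0.05 to 2.28, edgeR adjusted p = 0.171), which was not called. It was called with only the groups compared in the fit (1.08, edgeR adjusted p = 0.0208) and without replicate 3 of WT LPS defactinib (1.09, edgeR adjusted p = 0.0168).

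Between genotypes, Il1r2 differed by 0.77 after LPS with DMSO (95% interval -0.06 to 1.59, not called), or 1.02 without replicate 3 of IRF5 KO LPS DMSO (edgeR adjusted p = 0.0655). After LPS with defactinib it was lower in WT by -1.30 ± 0.40 (edgeR adjusted p = 0.0179), not called without replicate 1 (-1.28, edgeR adjusted p = 0.0505) or replicate 3 (-0.84) of WT LPS defactinib or with only the groups compared in the fit (-1.26, edgeR adjusted p = 0.135). It was -1.90 without replicate 2 of WT LPS defactinib. The change with defactinib differed between genotypes by -2.07 ± 0.55 (edgeR adjusted p = 0.00870), called in all 18 fits that left out 1 library. A further gene model on the same strand, Gm37347, overlaps Il1r2, and reads shared with it could not be assigned.

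Il1rap encodes the co-receptor that the receptors for IL-1, IL-33 and IL-36 share. In WT cells it went from 29.9, 29.6 and 30.7 CPM to 81.8, 70.4 and 68.8 with LPS and DMSO, a log2 fold change of 1.29 ± 0.19 (edgeR adjusted p = 5.21e-05), or 0.92 and not called with library size alone. Without IRF5, LPS left it at 21.1, 22.2 and 33.6 CPM, against 27.5, 22.5 and 26.1 unstimulated, a log2 fold change of 0.01 (95% interval -0.38 to 0.41). The difference between these responses was 1.28 ± 0.27 (edgeR adjusted p = 0.00486), or 1.52 without replicate 3 of IRF5 KO LPS DMSO.

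Defactinib brought Il1rap in WT cells to 30.5, 22.6 and 40.5 CPM, around the unstimulated level, a log2 fold change of -1.24 ± 0.19 against LPS DMSO (edgeR adjusted p = 6.29e-05) and 0.06 against unstimulated cells (95% interval -0.34 to 0.45). In IRF5 KO cells it was at 27.9, 27.5 and 31.0 CPM, a log2 fold change of 0.17 (95% interval -0.23 to 0.57). The difference between genotypes in this change was -1.41 ± 0.27 (edgeR adjusted p = 0.000765). After LPS with DMSO Il1rap was higher in WT than in IRF5 KO by 1.52 ± 0.19 (edgeR adjusted p = 1.42e-05), or 1.77 without replicate 3 of IRF5 KO LPS DMSO, and it did not differ detectably between genotypes unstimulated (0.24, 95% interval -0.16 to 0.64) or with defactinib (0.12, -0.28 to 0.52).

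Il18bp encodes the soluble inhibitor of IL-18 and was the 1 member called in none of the 11 comparisons. It was at 5.19, 5.45 and 5.88 CPM in unstimulated WT cells, 10.6, 9.77 and 8.01 with LPS and DMSO, and 6.70, 5.56 and 17.4 with LPS and defactinib. IRF5 KO libraries held 4.22, 4.16 and 3.70 CPM unstimulated, 7.12, 4.67 and 5.52 with LPS and DMSO, and 6.53, 6.79 and 6.14 with LPS and defactinib. The LPS libraries lay above the unstimulated ones in both genotypes, with log2 fold changes of 0.78 ± 0.31 in WT (edgeR adjusted p = 0.0530) and 0.52 ± 0.31 in IRF5 KO (edgeR adjusted p = 0.193). Against unstimulated WT cells, LPS with defactinib gave 0.84 (edgeR adjusted p = 0.0312), with overlapping libraries. It passed the fold threshold without replicate 1 or 2 of WT LPS defactinib (1.09 and 1.14) and was 0.17 without replicate 3, the highest of them.

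In the interaction of genotype and defactinib, Il1a, Il1b, Il1rn, Il1r2 and Il1rap were the 5 members called lower, against 12.3% of all genes. The median of the 8 members was -1.28 in log2 fold change, and that of all genes 0.12. Il18 and Il18bp showed no detectable difference, at -0.01 (95% interval -0.78 to 0.75) and -0.11 (-1.03 to 0.82), the latter -0.76 without replicate 3 of WT LPS defactinib (edgeR adjusted p = 0.0192, short of the fold threshold).

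**Figure D4:**
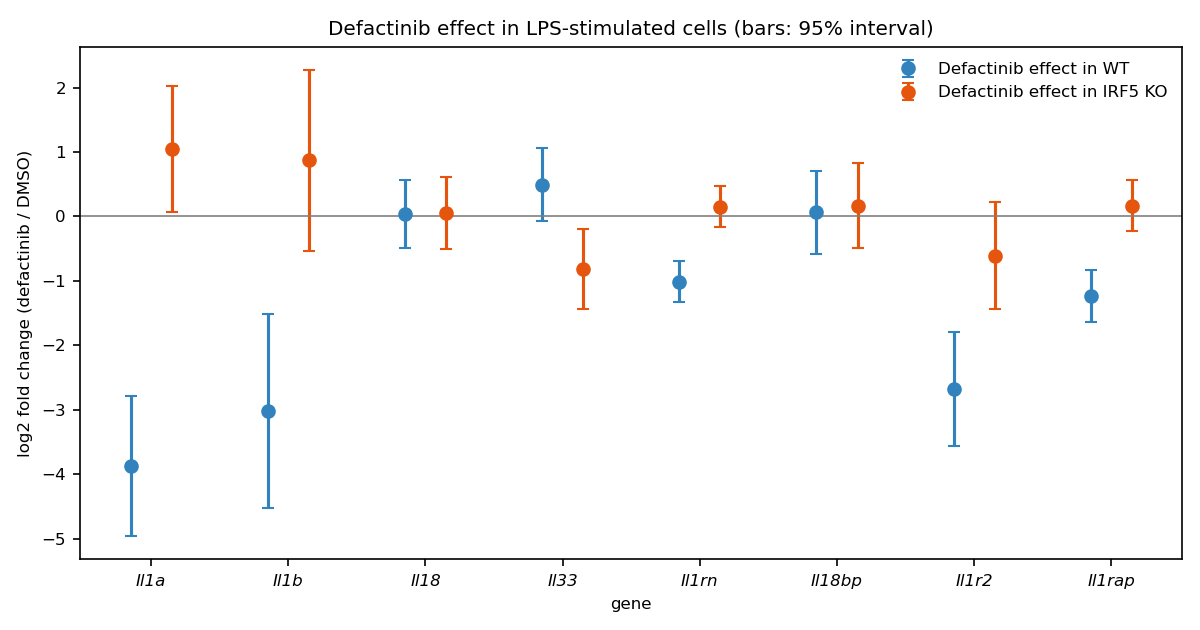
log2 fold change of each gene with defactinib against DMSO in LPS-stimulated WT (blue) and IRF5 KO (orange) cells; points are edgeR estimates from 3 libraries per group and bars their 95% intervals. The blue intervals of Il1a, Il1b, Il1rn, Il1r2 and Il1rap lie below 0, and Il1a is at -3.87 in WT and 1.05 in IRF5 KO.

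Other ligands and receptors of the family were read from a list of 13 genes, of which 8 were tested. In WT cells LPS raised 2 of the 8 (against 11.6% of all genes) and lowered 2 (9.71%). It raised Il1f6 (IL-36α), from a mean of 0.296 to 5.61 CPM in WT (log2 fold change 4.24, edgeR adjusted p = 2.23e-06), and Il1f9 (IL-36γ), from 91.7 to 202 CPM (1.14). It lowered Il1rl1, which encodes the IL-33 receptor ST2, from 71.1 to 32.4 CPM (-1.13), and Sigirr, a receptor that dampens IL-1 signalling, from 2.64 to 1.28 CPM (-1.04). In IRF5 KO cells LPS raised 1, Il1f6 (4.19, or 3.47 without replicate 3 of IRF5 KO LPS DMSO), against 7.07% of all genes, and lowered 2, against 6.28%: Il1r1, the signalling receptor for IL-1 (-1.08), and Il1rl2, the IL-36 receptor (-1.12). In WT, Il1r1 had a log2 fold change of -0.97 with LPS (edgeR adjusted p = 0.00106) and Il1rl2 one of -0.76, both short of the fold threshold. Defactinib lowered 2 in WT cells (against 18.6% of all genes), Il1f6 (-2.67) and Il1f9 (-1.62), and raised 1 (10.4%), Sigirr (2.05). Without IRF5, edgeR called 0 of the 8 with defactinib, as did DESeq2 and limma-voom, and at an unadjusted p below 0.05 none was higher and 1 was lower. The 3 of the list with the highest levels, Il1f9, Il1rl1 and Il1rl2, had log2 fold changes of 0.17, -0.53 and 0.26 there, and Il1f6 was called higher (1.44, edgeR adjusted p = 0.00631) without replicate 3 of IRF5 KO LPS DMSO. Il1r1 itself was at a mean of 11.7 CPM in unstimulated WT and 7.12 CPM in unstimulated IRF5 KO cells, and was lower than that with LPS and defactinib in both genotypes (-1.08 in WT and -1.12 in IRF5 KO). With LPS and DMSO, 2 of the 8 were higher in WT than in IRF5 KO (against 14% of all genes), Il1f6 (1.33, or 2.05 without replicate 3 of IRF5 KO LPS DMSO) and Il1f9 (1.22), and 1 was lower (11.8%), Sigirr (-1.78).

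Of 18 genes of cytokine processing and release, 17 were tested. In WT cells LPS raised 4 (against 11.6% of all genes) and lowered 2 (9.71%). It raised the inflammasome sensors Nlrp3 (1.68), Aim2 (1.68) and Mefv (2.91) and the inflammatory caspase Casp4 (2.60), and lowered the pore-forming Gsdme (-1.33) and the ATP receptor P2rx7 (-1.19). Defactinib lowered 5 of the 17 in WT cells, against 18.6% of all genes, and raised none, against 10.4%. It lowered Nlrp3 by the most, from a mean of 383 to 62.5 CPM (-2.61, edgeR adjusted p = 2.56e-08), followed by Mefv (-2.02), Casp4 (-1.56), Aim2 (-1.48) and Nlrc4 (-1.24). In IRF5 KO cells LPS raised 2 (against 7.07%), Nlrp3 (1.71) and Casp4 (1.18), and lowered 1 (6.28%), P2rx7 (-1.48). Without replicate 3 of IRF5 KO LPS DMSO it raised 3 and lowered 3, with Prtn3 (1.98), Nlrc4 (-1.11) and Nlrp1b (-1.12) as the added calls. With defactinib in that genotype edgeR called 0 of the 17, as did DESeq2 and limma-voom, with 2 higher and 1 lower at an unadjusted p below 0.05. Nlrp3 there was at a mean of 328 CPM with DMSO and 526 with defactinib, a log2 fold change of 0.68 that fell short of the fold threshold (edgeR adjusted p = 0.0431), and Capn1 and Capn2, the next highest, had 0.05 and 0.09. The change with defactinib was lower in WT than in IRF5 KO for 4 of the 17 (against 12.3% of all genes) and higher for 1 (10.5%). It was lower for Nlrp3 (-3.30), Casp4 (-2.01), Aim2 (-1.65) and Nlrc4 (-1.09) and higher for P2rx7 (1.18, or 0.64 and not called without replicate 3 of IRF5 KO LPS DMSO), and without that library Mefv was also called lower (-2.86). After LPS with DMSO, 2 of the 17 were higher in WT than in IRF5 KO (against 14% of all genes), Casp4 (1.94) and Casp1, which cleaves the precursors of IL-1β and IL-18 (1.05, edgeR adjusted p = 8.88e-05). There 3 were lower in WT (11.8%), Gsdme (-1.89), P2rx7 (-1.25) and Prtn3 (-2.53). Without replicate 3 of IRF5 KO LPS DMSO, P2rx7 fell short of the fold threshold (-0.71) and Nlrc4 was called higher (1.28).

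All 21 genes of IL-1 receptor signalling were tested. LPS raised 7 in WT cells, against 11.6% of all genes, and lowered 1, against 9.71%: Irak2, a kinase of the receptor complex (1.04), the adaptor Tab2 (1.00), the ubiquitin ligase Peli1 (4.30) and the feedback genes Nfkbia (2.80), Tnfaip3 (3.76), Nfkbiz (7.99) and Zc3h12a (3.49) rose, and Tab1 fell (-1.74). In IRF5 KO cells it raised 6 (against 7.07%), Nfkbiz (8.22), Tnfaip3 (5.53), Peli1 (2.88), Nfkbia (2.56), Zc3h12a (1.83) and Traf6 (1.55), and lowered 1 (6.28%), Tab1 (-1.70). Without replicate 3 of IRF5 KO LPS DMSO, Zc3h12a was at 1.25 and Tab1 at -3.46. Defactinib lowered 4 of the 21 in WT cells, a share near the 18.6% of all genes called lower, and raised none, against 10.4%. The 4 were Irak2 (-1.79), Peli1 (-3.22), Tab2 (-1.08) and Zc3h12a (-3.90), the RNase also called Regnase-1. Without IRF5, edgeR called 0 of the 21 with defactinib, as did DESeq2 and limma-voom, with 4 higher and 2 lower at an unadjusted p below 0.05. The 3 with the highest levels, Tnfaip3, Nfkbiz and Nfkbia, had log2 fold changes of 0.36, 0.80 and 0.58 there, and of -0.15, 0.31 and 0.26 without replicate 3 of IRF5 KO LPS DMSO. Under LPS with DMSO, 2 of the 21 were higher in WT than in IRF5 KO (against 14% of all genes), Zc3h12a (2.05, or 2.63 without replicate 3 of IRF5 KO LPS DMSO) and Peli1 (1.31), and 2 were lower (11.8%), Tnfaip3 (-1.49) and Nfkbiz (-1.21). Tab1 was also called higher without that library (1.98). With replicate number added to the fit, 1 of the 21 was called lower in WT, in place of 2. Tnfaip3, an inhibitor of NF-κB, was at a mean of 973 CPM in WT and 2733 CPM in IRF5 KO cells after LPS with DMSO, and 1320 and 3507 CPM after LPS with defactinib. The IRF5 KO LPS DMSO libraries ran from 391 to 3927 CPM, the lowest of them below every WT library (925 to 1014 CPM), so the groups overlapped. Those of Nfkbiz overlapped likewise, at 322 to 2318 CPM in IRF5 KO and 706 to 719 in WT. The log2 fold changes of Tnfaip3 between genotypes were -1.49 with DMSO (edgeR adjusted p = 0.0237), or -2.01 without replicate 3 of IRF5 KO LPS DMSO, and -1.41 with defactinib (edgeR adjusted p = 0.0417). After LPS with defactinib 9 of the 21 genes were lower in WT than in IRF5 KO, against 8.87% of all genes, Irak2 (-2.26), Nfkbiz (-2.18), Peli1 (-2.16) and Zc3h12a (-2.14) by the most, and 1, Tab1, was higher (2.05), against 8.45%.

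The genes whose log2 CPM followed each member most closely over the 18 libraries were taken from tested genes whose log2 CPM averaged 3 or more. For Il1a they were Rapgef2 (Pearson r = 0.97), Il1b and Mapkapk2, and for Il1b they were Il1a, Il6 (0.97) and Smarce1-ps1. Il1rn was closest to Ktn1 (0.96) and to the paralogs Bcl2a1d and Bcl2a1b, between which reads can be shared, and Il1rap to Snx10 (0.98), Plpp3 and Usp25. Il33 was closest to Mucl1, Syt7 and Kif1a (0.98 to 0.99), Il18 to Vim, Pla2g16 and Pdzk1ip1 (0.90 to 0.93), Il1r2 to Mybl2, Kif4 and Chst7 (0.86 to 0.94) and Il18bp to Agrn, H2-T22 and Ube2l6 (0.92 to 0.93). The libraries share 6 groups, so r mostly reflects group means, and 14 of the 24 genes stayed in the lists without replicate 3 of IRF5 KO LPS DMSO. Among the members themselves, Il33 was nearly unrelated to Il1a (-0.11) and Il1b (0.07) and closest to Il18 (0.80).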

How the data were processed

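The authors deposited 1 table of raw counts per gene for all 18 libraries, made from uniquely mapped read pairs and not normalized. Per the file headers and the authors' methods, STAR aligned the reads to mm10, and featureCounts 1.6.3 counted them over the exons of each Ensembl gene on the reverse strand. Gene length in bases, a further deposited column of another kind, was used for CPM per kb. Of 50600 identifiers, 50376 had a symbol in GENCODE, and all 8 members passed the filter on low counts.

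Counts were tested in edgeR 4.0.16 under R 4.3.3 by its two-sided quasi-likelihood F test, with TMM normalization, filterByExpr, 1 mean per group fitted robustly over all 18 libraries, and Benjamini-Hochberg adjustment over the 15663 tested genes. Calls required a false discovery rate under 0.05 together with a log2 fold change beyond 1. The SE was the log2 fold change divided by the square root of F. Interactions are the change in WT minus that in IRF5 KO. The test was tried on simulated counts with known changes, drawn with 1 dispersion for all genes and all groups. The real groups differ in spread, so this trial does not show how the test performs on these data. Correlations used log2 CPM with a prior count of 2. Alternatives used limma 3.58.1 and DESeq2 1.42.0, other scalings and filters, and fits without each library in turn. Promoter windows came from RefSeq (GRCm38.p6), each motif being searched on both strands.

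Members, gene lists and tests were chosen with earlier results of these data known. Named genes were the 8 members, Irf5, the 3 genes most similar to each member, and from 3 pathway lists the genes called in the comparison described or, where none was, the 3 of highest level; Il1r1 in unstimulated cells, and list genes called only without replicate 3 of IRF5 KO LPS DMSO, were named after their values were seen.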

Additional observations from a re-analysis of the deposited data

Results flagged for a closer look

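For 8 combinations of gene and contrast, the effect of LPS or of defactinib differed between WT and IRF5 KO cells by the interaction test of edgeR (quasi-likelihood, adjusted over all tested genes). The LPS response was larger in WT for Il1rn (1.35 in log2, adjusted p = 0.000863) and Il1rap (1.28, adjusted p = 0.00486). The change with defactinib was lower in WT for Il1a (-4.92), Il1b (-3.88), Il1r2 (-2.07), Il1rap (-1.41) and Il1rn (-1.16), and higher in WT for Il33 (1.31), with adjusted p between 5.95e-05 and 0.0170. All 8 were called in each of the 18 fits that left out 1 library. Under glmTreat, which tests against the fold threshold, the defactinib results of Il1a and Il1b were still called and the other 6 were not. Il33 was also not called by limma-voom (1.29, adjusted p = 0.0663), nor Il1rn for defactinib with library size alone (-0.82). Without replicate 3 of IRF5 KO LPS DMSO, the library that stood apart, they were 1.56 and 1.52 for LPS, and -5.28, -4.69, -2.33, -1.65, -1.37 and 1.10 for defactinib, in the same order. No group of 4 or more libraries was present, so outliers were not tested.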

How the results depend on the processing

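Over 88 combinations of member and comparison, no called change reversed its direction under any alternative. With 10 other settings, 806 of 858 values kept their side of the threshold, 42 lost the call and 10 gained it. With 1 library left out, 1523 of 1584 did, 50 lost it and 11 gained it. The test against a fold threshold inside the model (glmTreat) lowered most counts of called members: 3 higher with LPS in WT, 3 lower with defactinib in WT, 3 higher in WT than in IRF5 KO after LPS with DMSO, 1 higher and 1 lower after LPS with defactinib, 0 higher and 0 lower for LPS with defactinib against unstimulated WT cells, 0 higher in the interaction with LPS, and 0 higher and 2 lower in that with defactinib. Library size alone gave 3 members higher in WT than in IRF5 KO after LPS with DMSO, in place of 6. The median log2 fold change of all genes there was -0.30, against -0.05 in the main fit. It was -0.38 for LPS in WT, against -0.005, and 0.45 in the interaction with defactinib, against 0.12. Without a fold threshold, LPS raised 4 members in IRF5 KO cells and LPS with defactinib 6 in WT cells. A filter of 5 CPM in 3 libraries removed Il18 and left 1 member higher in WT than in IRF5 KO after LPS with defactinib. With only the groups compared in the fit, 1 member was lower in WT after LPS with defactinib, 1 was higher and 0 lower for LPS with defactinib against unstimulated WT cells, and 4 were higher in the interaction with LPS. For LPS with defactinib against unstimulated WT cells limma-voom called 1 higher and the fit with no filter 0 lower, and limma-voom called 0 higher in the interaction with defactinib. DESeq2 gave no p-value for Il1b, which was left out of its counts, and otherwise changed no call. The cause of these differences was not tested.

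With 1 library left out, the counts of members called ranged from 5 to 6 higher with LPS in WT, 2 to 3 higher with LPS in IRF5 KO, 4 to 5 lower with defactinib in WT, 0 to 1 higher with defactinib in IRF5 KO, 4 to 6 higher in WT after LPS with DMSO, 1 to 2 higher and 1 to 3 lower in WT after LPS with defactinib, 1 to 5 higher and 0 to 1 lower for LPS with defactinib against unstimulated WT cells, and 2 to 3 higher in the interaction with LPS, and 14 of 24 most similar genes stayed without IRF5 KO LPS DMSO replicate 3. Replicate numbers did not pair the libraries: same-numbered libraries had a median correlation of 0.0046 over 45 pairs, and 7 of 18 libraries correlated best with their own number. The replicate block changed no call of a member, with 5 higher with LPS and 5 lower with defactinib in WT. It changed 2 counts of the pathway lists, to 1 signalling gene lower in WT after LPS with DMSO and 0 other receptors lower in the interaction with LPS.

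The 3 libraries per group limit every test, and the wide spread of WT LPS defactinib and of IRF5 KO LPS DMSO limits Il1a and Il1b most: in IRF5 KO cells the intervals of their change with defactinib reach 2.02 and 2.27. Il18 and Il18bp were counted at a few CPM. Counting was of transcripts only, and vehicle in the unstimulated cells is given differently by the labels and the table.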
